A study of Mus musculus with 6 samples.

Results

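The regions described here are stretches of DNA in the 3′ untranslated regions (3′ UTRs) of mouse genes where cytosine methylation in the CHG context was listed by the authors as different between injected embryos. CHG is a cytosine followed by any base but G and then by G, so its letters are CAG, CTG or CCG. A region was kept if its context was CHG, if at least 1 of its annotation entries was a 3′ UTR, and if it did not lie on chromosome X or Y. This left 833 of the 9707 distinct regions in the authors' list, 832 on autosomes and 1 on an unplaced scaffold. The rule used position and context, not levels, but every region had entered the list because the authors called it different.

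Some embryos had received, as fertilised eggs, sperm small RNAs of stress-induced depressed mice (the depressed-RNA group, 3 embryos), and the others those of normal mice (the normal-RNA group, 3 embryos). Both were of C57BL/6 background, received the RNA at 2 ng/µl by microinjection, grew in culture at 37 °C, and were collected about 108 h later, at day E4.5. Each embryo, a late blastocyst, gave its own whole-genome bisulfite library, in which unmethylated cytosine is converted and read as thymine. An embryo that received no RNA was not analysed here. The table holds 1 mean level per group and region and 0 columns of values per embryo. The values below therefore carry no SD, and their read depth is unknown. How far embryos of a group differ from each other, and so whether any difference is larger than that, was not tested.

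The 3′ UTR is the part of a messenger RNA after the stop codon. It carries the signals for cleavage and polyadenylation and the sites at which microRNAs and RNA-binding proteins act on the stability, translation and transport of the message, and it tends to be long in genes of the nervous system. In mammals most DNA methylation sits at CG, and methylation outside CG is scarce in most cells, with oocytes, pluripotent cells and mature neurons as the known exceptions. None of the levels below is a measure of RNA.

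One of the regions holds microRNA genes. The region listed for the 3′ UTR of Cd46, a complement regulator gene (mm10, chr1:195034694-195037648), had a CHG level of 0.0886% in depressed-RNA and 62.9% in normal-RNA embryos. Its 2955 bp hold the hairpins of Mir29b-2 (chr1:195037040-195037120, plus strand) and Mir29c (chr1:195037547-195037634, plus strand), and it lies 1323 bp outside the RefSeq span of Cd46. The mature sequences of these microRNAs are shown because miR-29 is known to target messages of the DNA methyltransferases Dnmt3a and Dnmt3b. Capitals mark the seed, bases 2 to 8, and the sequences are RefSeq's for GRCm38.p6.
mmu-miR-29b-3p: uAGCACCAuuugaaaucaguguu
mmu-miR-29c-3p: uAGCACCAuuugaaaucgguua
mmu-miR-29b-2-5p: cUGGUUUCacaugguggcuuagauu
mmu-miR-29c-5p: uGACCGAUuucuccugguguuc
Both 3p arms share the seed AGCACCA, and the 5p arms differ from them and from each other in the seed. The authors counted 12 CHG cytosines over the whole region, so whether any of them lies in a hairpin cannot be told from the table. A lower CHH region covered all of it, at 0.559% in depressed-RNA and 47.9% in normal-RNA embryos.

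What CHG sites look like in such a region can be shown for a pair of members that reach into the promoter window of a neighbouring gene (250 bases before to 50 after its start, RefSeq, GRCm38.p6). The 3′ UTR region of the septin gene Sept5 (chr16:18622429-18622700) shares 225 bp with the window of Gp1bb, a platelet glycoprotein gene. That of Gng3, a G protein subunit gene (chr19:8838100-8839145), shares 68 bp with the window of Bscl2, the seipin gene. The 30 bases richest in CHG on the plus strand of each shared stretch are given here, with CHG sites in capitals.
Sept5, chr16:18622551-18622580: CTGtggctCTGtggctcCAGgtCTGaaCAG
Gng3, chr19:8839093-8839122: aaatatCCGtagcaCTGaCAGttaatgCAG
The Sept5 region was at 1.29% in depressed-RNA and 33.3% in normal-RNA embryos, and that of Gng3 at 0.150% in depressed-RNA and 24.6% in normal-RNA embryos. The 225 bp at Sept5 hold 17 CHG sites on the plus strand and 19 on the minus strand, while the authors counted 24 cytosines over the whole 272 bp. The 68 bp at Gng3 hold 5 on the plus strand and 4 on the minus strand, while 13 cytosines were counted over 1046 bp. The 3 letters CAG, CTG or CCG occurred on at least 1 strand in 99.99% of 32851 promoter windows of 300 bases, where CAG on a strand is CTG on the other.

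Methylation in these 3′ UTR regions was lower in depressed-RNA embryos almost throughout. Of the 833 regions, 811 were lower and 22 were higher, so 97.4% were lower (95% exact binomial interval 96.03 to 98.3%, over regions). Of all 1853 CHG regions outside X and Y, 91.3% were lower and 8.74% higher, and of the 1020 CHG regions outside 3′ UTRs 86.3% were lower. For CHG regions in exons but outside 3′ UTRs the share that was higher was 16.8% (119 of 710), against 2.64% in 3′ UTRs. It was 6.77% (21 of 310) for CHG regions touching no exon. Regions of the CHH context, where both bases after the cytosine are not G, had 5.93% higher in 3′ UTRs (38 of 641). Lower regions outnumbered higher ones on all 19 autosomes, and 7 autosomes had 0 higher regions. On all 19 the share that was higher was smaller in 3′ UTRs than among the other CHG regions of that chromosome. These shares describe the authors' list, and no test of their difference is given. Of 8 regions on chromosome X, left out by the rule, 7 were lower.

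**Figure D1:**
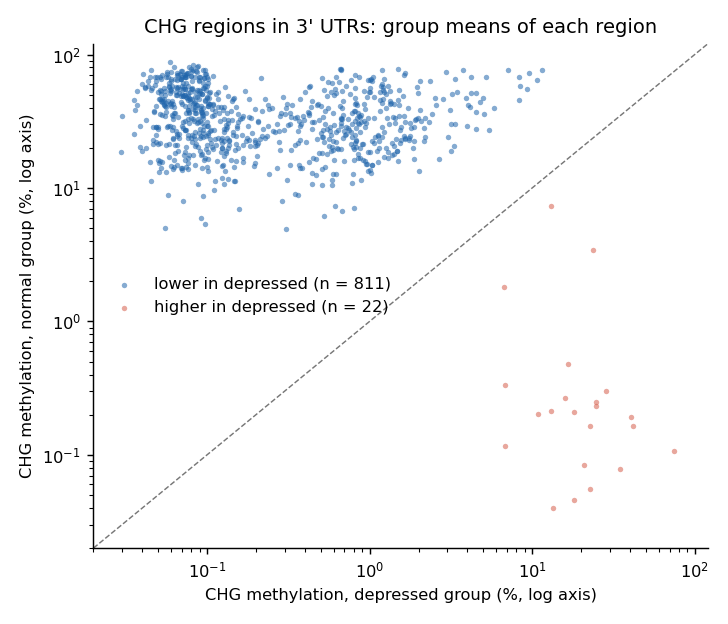
CHG methylation of each of the 833 regions, with the authors' mean of the depressed-RNA group on the x axis and that of the normal-RNA group on the y axis (percent, both log axes; the dashed line marks equal levels). The 811 lower regions lie above the line at 4.90 to 87.2% in normal-RNA embryos, and the 22 higher regions lie below it. In depressed-RNA embryos the lower regions form a pair of clouds on the log axis. The median was 0.0808% for those under 0.2% and 0.668% for those between 0.4 and 1%.

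In the lower regions the depressed-RNA group was close to unmethylated. Its level had a median of 0.140% (95% order-statistic interval 0.124 to 0.167%) and ran from 0.0294 to 11.6%, while that of the normal-RNA group had a median of 33.2% (31.2 to 34.8%) and ran from 4.90 to 87.2%. The difference was at least 10 percentage points in 793 of 811 regions (97.8%), against 91.9% of the lower CHG regions outside 3′ UTRs. It was at least 50 in 188 (23.2%), against 19.1% of those outside 3′ UTRs. The median levels there were 0.227% in depressed-RNA and 28.4% in normal-RNA embryos. Of the lower 3′ UTR regions 668 (82.4%) had under 1% in depressed-RNA embryos, against 77.0% of the lower CHG regions outside 3′ UTRs. Outside 3′ UTRs this share was 74.1% where the region touched an exon (median 0.366%). It was 83.0% where it touched none (median 0.104%), so levels near 0 were not particular to 3′ UTRs. A level over 50% in normal-RNA embryos was found in 196 (24.2%), against 20.2% outside 3′ UTRs. Median levels per autosome lay between 0.0814 and 0.361% in depressed-RNA embryos and between 27.4 and 49.3% in normal-RNA embryos.

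On a log axis, levels of the depressed-RNA group formed a pair of clouds. The classes used here to describe them have unequal widths, and whether there are separate groups of levels was not tested. A level under 0.2% was found in 450 lower regions (55.5%), with a median of 0.0808%, and 60 (7.40%) lay between 0.2 and 0.4%. Another 158 lay between 0.4 and 1% and 143 at 1% or above, with medians of 0.668 and 1.60%. The normal-RNA group had a median of 36.4% in the first of these classes, 28.4% in the second, 28.5% in the third and 34.5% in the last. The lower CHG regions outside 3′ UTRs also had few levels in the second class, with 425 of 880 (48.3%) under 0.2% and 74 (8.41%) between 0.2 and 0.4%. Regions under 0.2% held a median of 9 cytosines, those between 0.4 and 1% held 13. Without reads per cytosine it cannot be told how many methylated reads, if any, stand behind the lowest levels.

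The regions were short. Lower ones had a median length of 128 bp (51 to 3578) and of 10 counted cytosines (4 to 115), against 111 bp and 10 cytosines outside 3′ UTRs. Few were long, with 35 of 1000 bp or more, and in these the counted cytosines were sparse, with a median of 1.24 per 100 bp against 9.09 in the 256 regions under 100 bp. The longest lay in Rab3c, a synaptic vesicle GTPase gene (chromosome 13, 110056482 to 110060059), with 13 cytosines in 3578 bp and levels of 0.424% in depressed-RNA and 57.4% in normal-RNA embryos. At the edge of the list, the weakest statistic was that of Atxn7l3b (17.5 in absolute size, 4 cytosines, 2.06% in depressed-RNA and 31.8% in normal-RNA embryos). The smallest difference was that of Scamp2, a secretory carrier membrane protein gene, with 0.304% in depressed-RNA and 4.90% in normal-RNA embryos.

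The position of the regions was set against RefSeq gene spans, since RefSeq 3′ UTRs were not at hand. Of 833 regions, 816 overlapped the RefSeq span of a gene that lists them, and of the 872 pairs of gene and region 871 could be matched by symbol or synonym. Among the 659 overlapping pairs whose strand was at hand, the nearer gene end was the 3′ end in 644 (97.7%). The region of Ntrk2 lay farthest in, with its midpoint 129725 bp from the nearer end, which is the 5′ end, and the longer of those of Mbp lay 29364.5 bp from an end. The midpoint of the 795 lower regions that overlap their gene lay a median of 1250 bp from the nearest gene end (95% interval 1117 to 1382, quartiles 615.5 and 2511.5). The normal-RNA group's median lay between 31.7 and 33.7% in each of 5 classes of distance. Within 500 bp of the end the medians were 0.166% in depressed-RNA and 31.7% in normal-RNA embryos (158 regions), and at 2000 to 5000 bp they were 0.147% in depressed-RNA and 33.1% in normal-RNA embryos (185 regions).

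**Figure D2:**
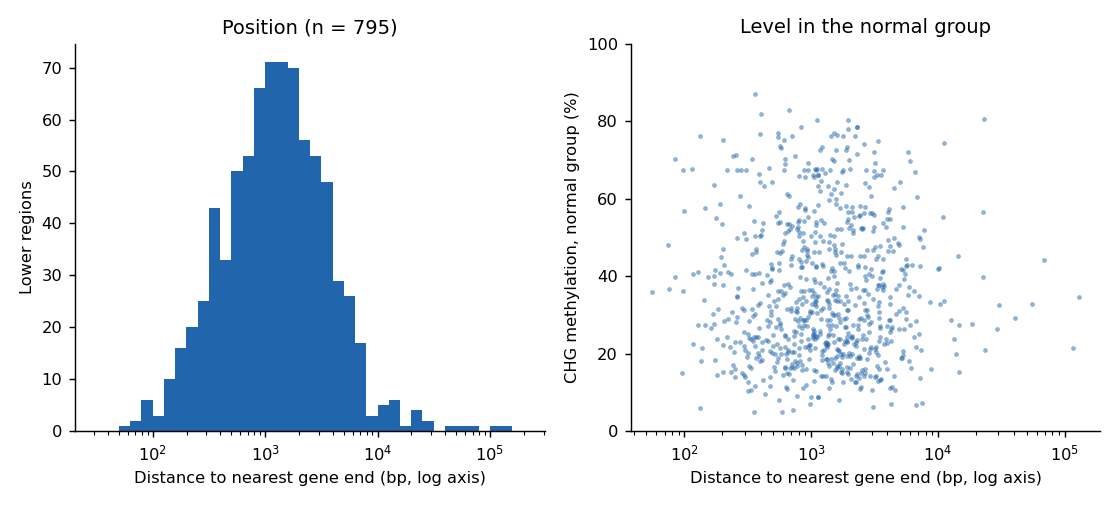
Position of the 795 lower regions that overlap their RefSeq gene. The left panel counts regions by distance of the midpoint from the nearest gene end (bp, log axis), with most between 0.5 and 5 kb, and the right panel plots the normal-RNA group's CHG level (%) against the same distance, with levels from low to high at every distance.

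A lower region was listed for 748 genes and a higher one for 22, and 0 genes had both. In all 694 genes had 1 region, 54 had 2, 18 had 3 and 4 had 4. Within the 76 genes with several, the normal-RNA group's level differed by a median of 16.5 percentage points between the highest and lowest region. Grin2b, the gene of an NMDA receptor subunit, had 4 regions with 0.0610, 4.06, 0.667 and 0.0909% in depressed-RNA embryos and 58.0, 41.8, 32.9 and 27.7% in normal-RNA embryos, in order of position. Nptx1, a neuronal pentraxin gene, also had 4, with levels from 0.0758 to 0.441% in depressed-RNA and from 10.6 to 41.6% in normal-RNA embryos. The others with 4 were Dcaf7 (0.0483 to 1.13% in depressed-RNA, 18.5 to 28.7% in normal-RNA embryos) and Sdf4 (0.0555 to 0.665% in depressed-RNA, 13.1 to 33.6% in normal-RNA embryos). Prrc2b, with 3 regions over 1421 bp in all, ranged from 0.0986 to 2.31% in depressed-RNA and from 21.2 to 31.0% in normal-RNA embryos.

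The strongest region by the authors' statistic, a score whose making is not given in the table, was listed for the 3′ UTR of Nefm, the medium neurofilament gene (chromosome 14, 68083984 to 68084811). It lies 34734 bp outside the RefSeq span of Nefm and is also listed for Nefl, the light neurofilament gene, so its place in the 3′ UTR of Nefm rests on the authors' annotation alone. Its 115 cytosines, the most of any region, were at 3.17% in depressed-RNA and 30.2% in normal-RNA embryos. Nsg2, which encodes a neuronal endosomal protein, followed with 0.0815% in depressed-RNA and 76.7% in normal-RNA embryos (chromosome 11, 32058468 to 32059170). Ppp2r2c, a brain-expressed regulatory subunit gene of protein phosphatase 2A, had 0.649% in depressed-RNA and 62.0% in normal-RNA embryos over 1416 bp.

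Others among the 15 strongest reached higher or lower levels. The highest level of the normal-RNA group, 87.2%, belonged to Cfl1, the gene of the actin-severing protein cofilin, with 0.0589% in depressed-RNA embryos (chromosome 19, 5493586 to 5493760). Itm2c had 0.0567% in depressed-RNA and 71.1% in normal-RNA embryos, Olfm1, a secreted glycoprotein gene of neurons, 4.20% in depressed-RNA and 67.4% in normal-RNA embryos, and the tubulin gene Tuba4a 1.96% in depressed-RNA and 56.8% in normal-RNA embryos. Ptms, the parathymosin gene, had 1.51% in depressed-RNA and 41.6% in normal-RNA embryos, and Sort1, the sortilin sorting receptor gene, 0.311% in depressed-RNA and 42.5% in normal-RNA embryos. Srgap3, the gene of a Slit-Robo pathway GTPase-activating protein, had 0.1001% in depressed-RNA and 48.05% in normal-RNA embryos. Mprip, whose product binds myosin phosphatase, had the lowest level of the normal-RNA group in this set, 18.9%, with 1.11% in depressed-RNA embryos.

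**Figure D3:**
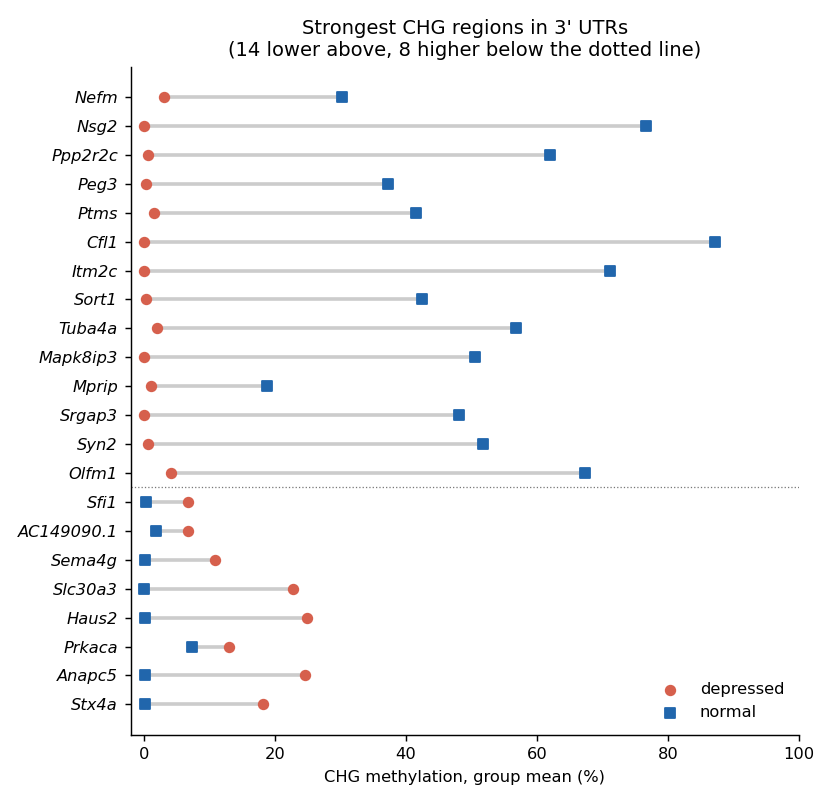
Group mean CHG levels (%) at the strongest regions by the authors' statistic, with 14 of the 15 strongest lower regions above and 8 higher regions below the dotted line (circles depressed, squares normal; one region per gene). The circles of the lower regions lie at 4.20% or less, while the squares reach from 18.9 to 87.2%.

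Lower regions were more frequent in lists of synapse genes than over all genes, though 631 genes with one were in none of the lists. Over all 20665 autosomal protein-coding genes, 3.61% had a lower 3′ UTR region and 0.102% a higher one. The gene lists used below were drawn up with earlier results of this table known, and 3′ UTR length was not adjusted for, so their counts are a description. For a gene with several regions the values are those of the region with the strongest statistic. Of 46 presynaptic vesicle genes 14 had a lower region and 0 a higher one, with median levels of 0.267% in depressed-RNA and 46.2% in normal-RNA embryos. They included the synapsin gene Syn2 (0.618% in depressed-RNA, 51.9% in normal-RNA embryos), Nsf, which takes apart SNARE complexes (0.505% in depressed-RNA, 40.8% in normal-RNA embryos), and Cplx1, a complexin that acts on vesicle fusion (0.0601% in depressed-RNA, 53.5% in normal-RNA embryos). Others were Nsg2, Stx1a, Sv2c, Rab3c, Cplx2, Bsn, Pclo, Napb and Dnm1.

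On the receiving side, 9 of 49 genes of postsynaptic receptors and scaffolds had a lower region and 0 a higher one, with medians of 0.0845% in depressed-RNA and 52.1% in normal-RNA embryos. The scaffold gene Shank1 had 0.0742% in depressed-RNA and 71.6% in normal-RNA embryos at its stronger region and 0.102% in depressed-RNA and 25.9% in normal-RNA embryos at another. Among genes of voltage-gated and inwardly rectifying channels and their kin, 7 of 59 had one, among them the sodium channel subunit gene Scn2b (0.0806% in depressed-RNA, 54.9% in normal-RNA embryos). The calcium channel subunit gene Cacnb3 had 0.0828% in depressed-RNA and 31.8% in normal-RNA embryos.

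Calcium and calmodulin signalling had the highest share of all 27 lists, 17 of 42 genes (40.5%), with medians of 0.127% in depressed-RNA and 42.9% in normal-RNA embryos. Hpcal4, a neuronal calcium sensor gene with 3 regions, reached 76.1% in normal-RNA embryos with 0.668% in depressed-RNA embryos, while another of its regions was at 0.519% in depressed-RNA and 24.01% in normal-RNA embryos. Camk2a, the alpha subunit gene of the CaM kinase of synaptic plasticity, had 0.511% in depressed-RNA and 13.99% in normal-RNA embryos. Atp2a2, a gene of the calcium pump of the endoplasmic reticulum, had 8.32% in depressed-RNA embryos against 67.3% in normal-RNA embryos. Levels above 5% in depressed-RNA embryos were found in 12 lower regions, the highest at Itih3 with 11.6% against 76.2% in normal-RNA embryos.

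The cytoskeleton list had 15 of 53 genes with a lower region, with medians of 0.682% in depressed-RNA and 45.0% in normal-RNA embryos. Beside Cfl1 and Tuba4a it held the tubulin gene Tubb5 (1.17% in depressed-RNA, 58.4% in normal-RNA embryos) and Actb, the beta-actin gene (0.0403% in depressed-RNA, 71.04% in normal-RNA embryos), and also Mapt, Map1a, Kif1a, Kif1b and Dpysl2. Genes of the sodium and proton pumps had 6 of 18, led by Atp6v0a1 (0.0531% in depressed-RNA, 46.2% in normal-RNA embryos) and Atp1b2 (0.0647% in depressed-RNA, 52.8% in normal-RNA embryos). Atp6v1g2 had 0.0662% in depressed-RNA and 57.6% in normal-RNA embryos and Atp6v1e1 0.0494% in depressed-RNA and 67.8% in normal-RNA embryos. Phosphatase subunits had 9 of 34, among them Ppp1r9b, the spinophilin gene of dendritic spines (0.0626% in depressed-RNA, 80.4% in normal-RNA embryos), Ppp1r16b (0.137% in depressed-RNA, 23.0% in normal-RNA embryos) and Ppm1h (0.0475% in depressed-RNA, 37.3% in normal-RNA embryos).

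**Figure D4:**
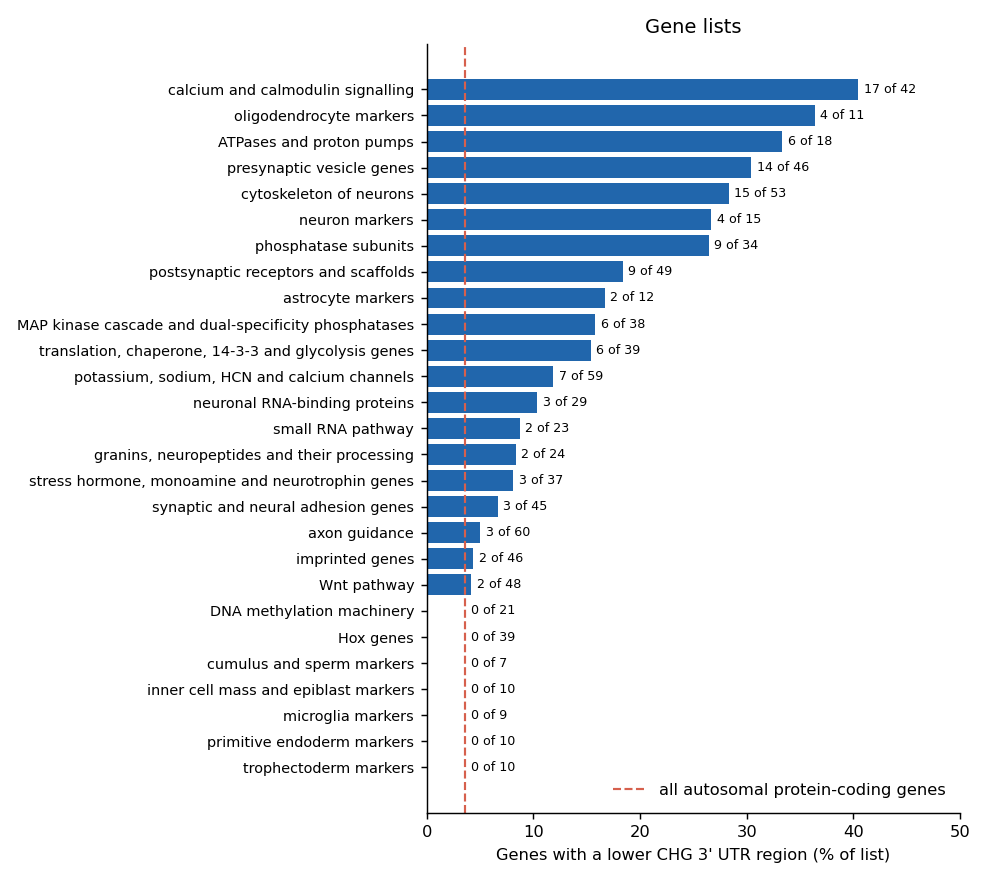
Share of the autosomal protein-coding genes of each list that had a lower CHG 3′ UTR region (bars, percent of the list, with counts beside them), and the share over all such genes (dashed line, 3.61%). Calcium and calmodulin signalling stands at the top with 17 of 42, and 7 lists, among them those of the 3 blastocyst lineages, have 0.

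Several other groups had smaller counts. MAP kinase genes and their phosphatases had 6 of 38, with the scaffold gene Mapk8ip3 (0.0522% in depressed-RNA, 50.6% in normal-RNA embryos), Mapk3 (0.361% in depressed-RNA, 26.6% in normal-RNA embryos) and Dusp26 (0.934% in depressed-RNA, 28.7% in normal-RNA embryos). Neuronal RNA-binding proteins had 3 of 29, Rbfox2 (0.146% in depressed-RNA, 47.5% in normal-RNA embryos), Nova2 (1.07% in depressed-RNA, 24.2% in normal-RNA embryos) and Cpeb4 (9.26% in depressed-RNA, 54.9% in normal-RNA embryos). Granin and neuropeptide genes had 2 of 24, Vgf (1.63% in depressed-RNA, 24.5% in normal-RNA embryos) and Pam (0.0371% in depressed-RNA, 53.7% in normal-RNA embryos). Adhesion genes had 3 of 45, Opcml (0.0965% in depressed-RNA, 76.9% in normal-RNA embryos), Cadm1 (0.165% in depressed-RNA, 33.7% in normal-RNA embryos) and Nrxn3 (0.132% in depressed-RNA, 23.9% in normal-RNA embryos). Axon guidance genes had 3 of 60, a share near that of all genes, with Sema7a at 0.124% in depressed-RNA and 21.7% in normal-RNA embryos, Epha4 at 0.0605% in depressed-RNA and 45.2% in normal-RNA embryos, and Ephb2 at 0.204% in depressed-RNA and 20.9% in normal-RNA embryos. Sema4g, also of this list, was higher in depressed-RNA embryos.

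Genes expressed in nearly all cells were represented too. Of 39 translation, chaperone, 14-3-3 and glycolysis genes 6 had a lower region, with medians of 0.632% in depressed-RNA and 60.9% in normal-RNA embryos. The 14-3-3 genes Ywhae (1.19% in depressed-RNA, 77.0% in normal-RNA embryos) and Ywhaz (0.0759% in depressed-RNA, 73.4% in normal-RNA embryos) reached higher than the pyruvate kinase gene Pkm (2.41% in depressed-RNA, 36.06% in normal-RNA embryos).

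Markers of neurons, astrocytes and oligodendrocytes included genes with a lower region. Neuron markers had 4 of 15, counting Nefm by the authors' annotation although its region lies outside that gene, Camk2a, Uchl1 (0.152% in depressed-RNA, 28.2% in normal-RNA embryos) and Stmn3 (0.912% in depressed-RNA, 21.4% in normal-RNA embryos). Astrocyte markers had 2 of 12, Gfap, the glial intermediate filament gene (0.712% in depressed-RNA, 58.6% in normal-RNA embryos), and the glutamate transporter gene Slc1a2 with 3 regions, the strongest at 0.756% in depressed-RNA and 51.05% in normal-RNA embryos. Oligodendrocyte markers had 4 of 11, the myelin genes Mbp (0.128% in depressed-RNA, 26.5% in normal-RNA embryos) and Mobp (0.0398% in depressed-RNA, 60.4% in normal-RNA embryos), Qdpr (2.00% in depressed-RNA, 33.7% in normal-RNA embryos) and Cldn11 (0.124% in depressed-RNA, 11.8% in normal-RNA embryos). The microglia list had 0 of 9. Markers of the inner cell mass and epiblast, of the trophectoderm and of the primitive endoderm had 0 of 10 each, and those of cumulus cells and sperm 0 of 7. These lists hold 10 genes or fewer, too few to tell a share of 0 from the 3.61% of all genes. The table holds no RNA levels and no values per library. Whether DNA of other cells, or cDNA or other libraries carried over into the embryos' libraries, had a part in the normal-RNA levels was not tested, and this bears on every such level given here.

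Lists tied to the study's question and to methylation itself had 0 to 3 genes each. Of 37 stress hormone, monoamine and neurotrophin genes 3 had a lower region, the cortisol-inactivating enzyme gene Hsd11b2 (0.348% in depressed-RNA, 21.04% in normal-RNA embryos), the neurotrophin receptor gene Ntrk2 (0.0620% in depressed-RNA, 34.8% in normal-RNA embryos) and the dopamine transporter gene Slc6a3 (0.0499% in depressed-RNA, 28.6% in normal-RNA embryos). The small RNA pathway had 2 of 23, Nsun2, an RNA cytosine methyltransferase gene (0.0651% in depressed-RNA, 20.9% in normal-RNA embryos), and Tnrc6b (0.0727% in depressed-RNA, 16.2% in normal-RNA embryos). The DNA methylation machinery had 0 of 21, Hox genes 0 of 39 and imprinted genes 2 of 46, counts too small to set apart from the 3.61% of all genes. Peg3, a paternally expressed zinc finger gene, had a pair of regions, at 0.418% in depressed-RNA and 37.3% in normal-RNA embryos over 2959 bp and at 0.977% in depressed-RNA and 33.6% in normal-RNA embryos over 520 bp, and Cd81 had 0.0759% in depressed-RNA and 38.2% in normal-RNA embryos. The Wnt pathway had 2 of 48, Apc2 (0.468% in depressed-RNA, 12.6% in normal-RNA embryos) and the beta-catenin gene Ctnnb1 (0.181% in depressed-RNA, 46.5% in normal-RNA embryos).

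CHH methylation, where both bases after the cytosine are not G, was lower at the same places. Of the 811 lower regions 478 (58.9%, 95% exact interval 55.5 to 62.3%) shared at least 1 base with a CHH region of the list. Among the lower CHG regions outside 3′ UTRs 40.1% did. Those were shorter, with a median of 111 bp against 128 bp. Of the lower 3′ UTR regions under 100 bp 32.8% had an overlap, and of those of 200 to 500 bp 88.5%. The shares in and outside 3′ UTRs were not compared at equal length. All 481 overlaps, 3 of them at higher regions, had the same direction in both contexts. The same held for all 357 overlaps of CHG regions outside 3′ UTRs. At the 478 places the depressed-RNA group had a median of 0.213% in CHG and 0.603% in CHH, and the normal-RNA group one of 34.7% in CHG and 30.7% in CHH. In 355 pairs (74.3%) the normal-RNA levels of both contexts differed by no more than 10 percentage points. Across these pairs Spearman's rho was 0.10 in depressed-RNA embryos and 0.84 in normal-RNA embryos, as a description, since both contexts were read from the same libraries and the pairs rest on 433 CHH regions. Regions with an overlap were longer, with a median of 162.5 bp against 97 bp without one, and held more cytosines, 12 against 8.

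**Figure D5:**
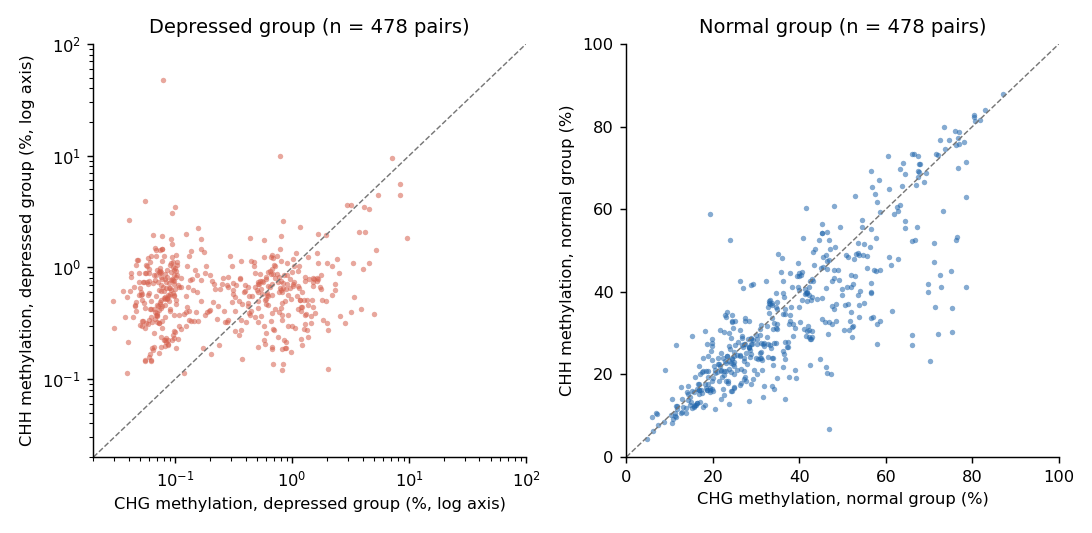
CHG level (x axis) against CHH level (y axis) at the 478 lower 3′ UTR regions that overlap a CHH region, for the depressed-RNA group (left, percent on log axes) and the normal-RNA group (right, percent on linear axes); dashed lines mark equal levels. In the normal-RNA group the points scatter about the line up to 87.2%, with CHG minus CHH from -39.6 to 46.9 percentage points. In depressed-RNA embryos most points lie under 2% on both axes.

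CG regions met these places only rarely. Of the 811 lower regions 9 (1.11%) overlapped a CG region, against 2.84% of the lower CHG regions outside 3′ UTRs. All 9 were lower in CG too, and outside 3′ UTRs all 25 overlaps had the same direction in both contexts. The 9 regions lay in Sar1a, Iffo1, Nicn1, Ndrg3, Rab6b, Tomm34, Mre11a, Tspyl4 and Apc2. There the normal-RNA group's CG level was above its CHG level in all 9. In Iffo1 it was 67.6% in CG and 7.35% in CHG, with 8.52% in CG and 0.615% in CHG in depressed-RNA embryos, and in Apc2 it was 75.5% in CG and 12.6% in CHG, with 17.2% in CG and 0.468% in CHG in depressed-RNA embryos.

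Some of the same genes carried other regions of the list outside 3′ UTRs. Of the 745 autosomal protein-coding genes with a lower CHG 3′ UTR region, 89 (11.9%) had another lower CHG region in an exon outside 3′ UTRs, against 2.41% of all such genes, and 8 (1.07%) a higher one, against 0.61%. A lower CHH region outside 3′ UTRs was listed for 86 (11.5%), against 2.82% of all, and a higher one for 81 (10.9%), against 9.26%. A lower CG region there was listed for 34 (4.56%), against 2.44%, and a higher one for 0, against 0.0242%. These shares were not tested, and gene length was not adjusted for. By their other annotation, 146 of the lower regions (18.0%) also touched an intron, 79 (9.74%) a promoter, 83 (10.2%) a CpG island or its shore and 57 (7.03%) a repeat. For lower CHG regions outside 3′ UTRs these counts were 433 (49.2%), 194 (22.05%), 262 (29.8%) and 132 of 880. All 811 lower 3′ UTR regions also touched an exon, but only 591 of those 880 did. For these 591 the counts, in the same order, were 184 (31.1%), 160 (27.1%), 243 (41.1%) and 16 (2.71%). The share of 3′ UTR regions touching a repeat was thus above that of the 591 but below that of all 880.

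The 22 regions that were higher in depressed-RNA embryos had median levels of 19.5% in depressed-RNA and 0.205% in normal-RNA embryos, a median length of 95.5 bp and 9.5 cytosines. Sfi1, a centrosomal protein gene, had the strongest statistic with 6.81% in depressed-RNA and 0.335% in normal-RNA embryos (chromosome 11, 3135436 to 3135680, 63 cytosines), and a CHH region there was higher too. A scaffold gene with the clone name AC149090.1 followed with 6.69% in depressed-RNA and 1.81% in normal-RNA embryos. Next were Sema4g, a semaphorin gene (10.9% in depressed-RNA, 0.202% in normal-RNA embryos), Slc30a3, the gene of the zinc transporter of synaptic vesicles (22.8% in depressed-RNA, 0.0554% in normal-RNA embryos), and Haus2 (24.9% in depressed-RNA, 0.234% in normal-RNA embryos). Anapc5, a subunit gene of the anaphase-promoting complex, had 24.6% in depressed-RNA and 0.250% in normal-RNA embryos, and Stx4a, a syntaxin gene, 18.1% in depressed-RNA and 0.209% in normal-RNA embryos.

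Prkaca, which encodes a catalytic subunit of protein kinase A, differed least among these 8 relative to its level, with 13.1% in depressed-RNA and 7.39% in normal-RNA embryos. Its region of 1899 bp also holds a CpG island and the start of the neighbouring gene Samd1. The highest level of the depressed-RNA group, chosen after its values were seen, was in the 3′ UTR of Med28, a Mediator subunit gene, at 74.5% against 0.107% in normal-RNA embryos, over 4 cytosines in 53 bp. A CHH region there stood at 71.5% in depressed-RNA and 1.97% in normal-RNA embryos.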

How the data were processed

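Whole-genome bisulfite libraries of 3 depressed and 3 normal single embryos were compared by the authors. The submitters' processing notes name Trim Galore 0.3.3, Bismark and SAMtools, and mm10 as the genome. Not given in the sources used here are the calling and filtering of regions and the way embryos entered the group means. Per the file headers, the deposited table gives each group's mean methylation as a fraction, the number of cytosines and a region statistic, which the authors deposited as a score. Fractions were multiplied to percent here. Its 18732 annotation entries were collapsed to 9707 regions by position and context. Sign and size of each difference are the depressed minus the normal mean.

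Counts, medians and overlaps were computed with Python 3.11.15, pandas 2.3.3 and SciPy 1.17.1. Only the overlap search and the coverage of the intervals were checked on simulated data. An overlap needs 1 shared base. Intervals (95%, exact binomial or order statistic) run over regions and cover the list only. The gene names of regions are those of the authors' annotation. Distances, and the matching of these names to genes, use RefSeq for GRCm38.p6, the assembly of mm10. No test was run, since no values per embryo were at hand.

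Genes named were the 15 lower and 8 higher with the strongest statistic, the 5 with most regions, the longest region, the one with most cytosines, those at the edge of the list, and up to 4 per list. The members, lists and rule were chosen with earlier results of these data known. Genes of the lists named without values, and Itih3, Med28, Prkar1b and the genes at CG overlaps, were chosen after their values were seen. So was Dpysl2 as a case where CHG and CHH part. Outside the rule, the regions of Cd46, Sept5 and Gng3 are shown for the sequences they hold. Some genes that the rule names are not reported here.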

Additional observations from a re-analysis of the deposited data

How the results depend on the processing

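No paired analysis was possible because the deposited table holds no values per embryo; leaving out embryos in turn was not run for the same reason. Of 86 recomputed values 77 stayed within the interval of the reported one (counts within 1.5 times) and 9 did not. Some could hardly move: leaving out scaffolds removes 1 region, a higher one, so values of the lower regions stay as they were. Lower regions outnumbered higher ones in all 29 settings, each of the 19 autosomes left out among them. With 811 lower and 22 higher regions, leaving out 1 autosome could not have reversed this. With at least 20 cytosines, which leaves 109 regions, 4.59% were higher in depressed-RNA embryos, the lower ones had medians of 0.519% in depressed-RNA and 30.9% in normal-RNA embryos, 93.3% overlapped a CHH region, and 23 genes of the lists had one, against 114 of 810. Among the 423 lower regions on the stronger side of the median statistic the depressed median was 0.311%, the CHH overlap 74.2% and the genes of the lists 73. Fewer regions leave fewer genes, and the share over all genes was not computed at these settings. The counts of 23 and 73 therefore do not tell whether the lists stand out less there. With a difference of at least 20 points the normal median was 38.9%. A lower region with a normal level under 20% cannot reach such a difference, so a rise of this median follows from the setting. Depth is unknown, so no coverage minimum could be set, and the precision of a level cannot be given. The cause of the other shifts was not tested.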

Other observations

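Gene families formed by symbol, after the values had been seen, differed in how many members had a lower CHG 3′ UTR region. V-type proton pump subunits had 5 of 24, Rab GTPases 7 of 55 (among them Rab6b and Rab15), and protein phosphatase 1 and 2 subunits 7 of 60. Solute carriers had 14 of 362, a share near the 3.61% of all genes, with 2 higher ones, Slc30a3 and Slc6a20b. Zfp genes had 2 of 388 (Zfp148 and Zfp106) and ribosomal protein genes 2 of 91 (Rpl27a and Rpl13a). Ubiquitin-conjugating enzymes had 0 of 34, NADH dehydrogenase subunits 0 of 47, keratins 0 of 53, olfactory receptors 0 of 1104 and vomeronasal receptors 0 of 354. The counts of ribosomal protein genes, ubiquitin-conjugating enzymes, NADH dehydrogenase subunits and keratins are too small to set apart from the 3.61% of all genes. 3′ UTR lengths were not at hand for these families.

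At Dpysl2, a neuronal cytoskeleton gene, the contexts parted in depressed-RNA embryos. The CHG region (chromosome 14, 66803630 to 66803766) was at 0.0791% in depressed-RNA and 78.5% in normal-RNA embryos, while the CHH region that covers its 137 bp was at 47.3% in depressed-RNA and 71.4% in normal-RNA embryos. That CHH region is 3220 bp long with 52 counted cytosines, so most of it lies outside the CHG region. Among the 478 overlapping pairs, 4 had a CHH level above 5% in depressed-RNA embryos, among them also those of Prkar1b (9.88%) and Atp2a2 (5.54%).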
